A study of Sus scrofa with 36 samples.

Results

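PPARG and PCK1 are 2 of the 12253 genes measured by RNA-Seq in the subcutaneous adipose tissue of 36 pigs. They were chosen by their gene symbols, as a pair whose levels over lean and obese pigs had already been looked at in these data, so their levels in the 3 groups and their relation to each other are given as a description without a test. Both rows were found through their Ensembl identifiers, ENSSSCG00000011579 for PPARG and ENSSSCG00000007507 for PCK1.

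PPARG encodes peroxisome proliferator-activated receptor gamma, a nuclear receptor for fatty acid ligands that binds DNA together with a retinoid X receptor. It is the central regulator of fat cell differentiation and the target of the glitazone drugs. PCK1 encodes the cytosolic phosphoenolpyruvate carboxykinase, known in liver for gluconeogenesis. In fat cells the enzyme serves glyceroneogenesis, in which pyruvate or lactate is turned into glycerol 3-phosphate, so that fatty acids set free by lipolysis can be esterified again. PCK1 is a textbook target gene of PPARG in adipose tissue, where glucocorticoids and insulin lower its transcription and cyclic AMP raises it.

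The pigs came from an F2 intercross of Göttingen minipig boars and Duroc sows, and the labels name no treatment. They were divided by a predicted genetic value for fatness, the Obesity Index, into 12 lean pigs (labelled Low), 12 intermediate pigs (Mean) and 12 obese pigs (High). The lean group held 7 males and 5 females, and each of the other groups held 6 of either sex. All pigs were slaughtered at about the same weight, so lean pigs were older on average, and age and group cannot be told apart. A group could hold up to 3 full sibs. Each pig gave 1 library of bulk tissue, in which fewer cells of a type and less RNA per cell cannot be told apart.

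The whole reads recovered from the deposited log2 values summed to 8735839 to 11755926 per pig, with a median of 10496910. Levels are given below as normalized counts, that is, reads divided by the size factor of the library. The fat cell genes of the tissue were abundant, with PLIN1, the perilipin that coats the lipid droplet, at a mean of 20986 ± 5258 normalized counts in lean pigs against 20838 ± 5902 in obese ones (SD, n = 12 each). Desmin (DES), the 1 muscle marker that could be matched, ranged from 30 to 1410. Obese replicates 1, 2 and 3, all females, stood apart from the rest on the second principal component of all genes, which held 11.8% of the variance. Their coordinates were -0.51 to -0.38, against -0.21 to 0.28 in the other 33 pigs. The 4 measured of 10 listed T or NK cell markers (CD2, CD8A, NKG7, PRF1) summed to 787 to 1574 normalized counts in these 3 females and to 103 to 614 in the others. Some other marker sums of these females also passed the range of the other pigs. Adipocyte sums were 63136 to 81473 against 26840 to 73474, and macrophage sums 5538 to 11870 against 2158 to 11012. Fibroblast or progenitor sums were 147978 to 394354 against 173678 to 795774, and endothelial sums 7292 to 12468 against 8525 to 16246. Muscle, red cell and skin sums lay within the range of the others. The group and sex differences of PPARG and PCK1 are given with and without these 3 libraries, as are other values below that turned or moved by over 1.5 times without them.

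PPARG was present at similar levels in every group. The lowest, median and highest normalized counts were 1047, 1644 and 3519 in lean pigs. They were 1197, 1570 and 2309 in intermediate pigs and 1302, 1926 and 3229 in obese pigs. The ranges overlapped over most of their length, and the lean median was exceeded by 10 of the 12 obese pigs. The lean group was the most variable, with a mean of 1980 ± 857 (SD, n = 12), since it held both the lowest pig of all and the 2 highest. The intermediate group had a mean of 1639 ± 305 and the obese group a mean of 2087 ± 573 (n = 12 each).

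PCK1 spread far more than PPARG. In lean pigs its lowest, median and highest normalized counts were 176, 618 and 1832. Intermediate pigs had 66.4, 257 and 3583, and obese pigs 39.9, 396 and 4729. The obese group thus held both the lowest and the highest pig of the study, which differed 119-fold, against 3.36-fold between the lowest and the highest pig for PPARG. The library with the fewest PCK1 reads still had 40, where counting error alone is about 15.8%. On the log2 scale PCK1 had an SD of 1.65 over the 36 pigs, rank 18 of 12253 genes, while PPARG had an SD of 0.43, rank 4127. The median gene had an SD of 0.34. After removal of group and sex the SD was still 1.52 for PCK1 and 0.39 for PPARG.

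**Figure D1:**
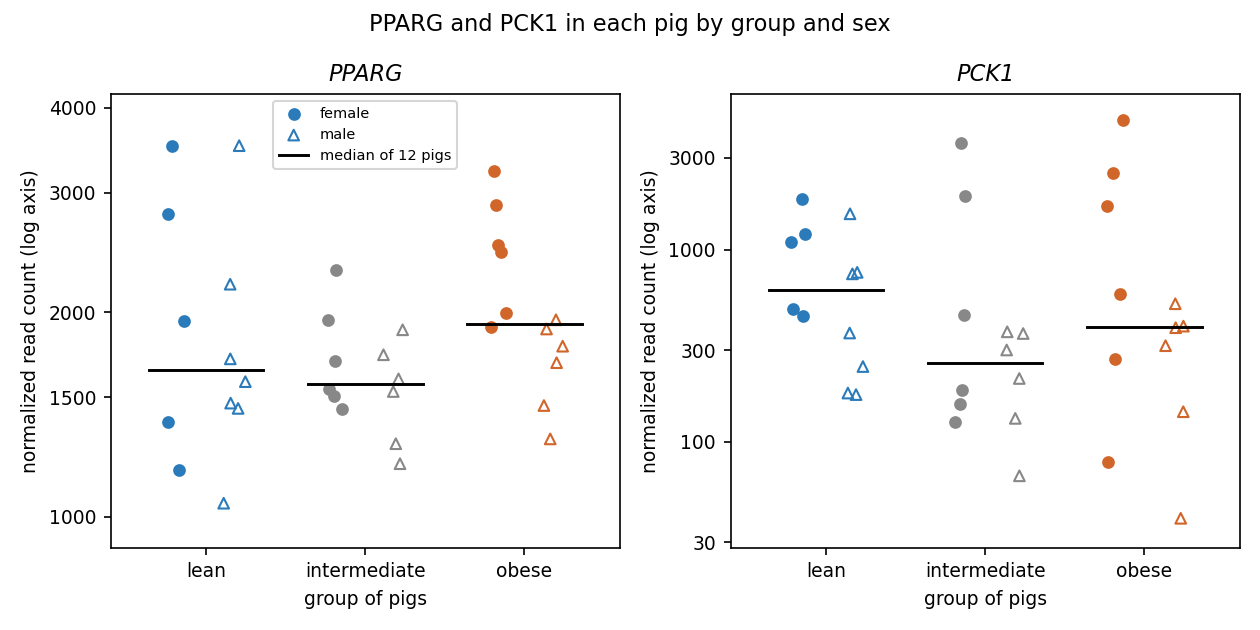
Normalized read counts (log axis) of PPARG and PCK1 in each of 36 pigs by group, with filled circles for females, open triangles for males and a bar at the median of the 12 pigs. PPARG lies between 1047 and 3519, whereas PCK1 runs from 39.9 to 4729, and both the lowest and the highest PCK1 pig are obese.

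The order of the groups was not the same for both genes, and for PCK1 it was not the same for means and medians. Fitted with limma on the log2 scale with sex as a covariate, PPARG was highest in obese, then lean, then intermediate pigs. The difference of obese minus lean was 0.10 ± 0.154 (SE), and that of intermediate minus lean was -0.22 ± 0.154. For PCK1 the fitted order over all 36 pigs was lean, obese, intermediate, with an obese minus lean difference of -0.56 ± 0.588 and an intermediate minus lean difference of -1.01 ± 0.588. The mean count of PCK1, in contrast, was higher in obese (971 ± 1389) than in lean pigs (757 ± 550, SD, n = 12 each), because the mean follows the few highest pigs. Only 3 of the 12 obese and 2 of the 12 intermediate pigs were above the lean median of PCK1. The obese minus intermediate difference was 0.32 ± 0.154 (SE) for PPARG and 0.45 ± 0.587 for PCK1. All 6 differences were smaller than the SD between single pigs after removal of group and sex, 0.39 for PPARG and 1.52 for PCK1. That SD is a spread of pigs and not the error of a difference between groups. The unadjusted 95% intervals of PPARG were -0.21 to 0.41 (obese minus lean), -0.54 to 0.09 (intermediate minus lean) and 0.01 to 0.64 (obese minus intermediate). In the same order those of PCK1 were -1.75 to 0.63, -2.2 to 0.19 and -0.74 to 1.64.

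The obese pigs above the lean median of PCK1 were replicates 1, 2 and 3. Their PCK1 was 1679, 4729 and 2492 normalized counts, whereas the other 9 obese pigs ranged from 39.9 to 587. They also had the highest PPARG of the obese group, with 2876, 3229 and 2517, against 1302 to 2456 in the other 9. Without these 3 libraries the obese minus lean difference of PCK1 was -1.28 ± 0.566 (SE), and that of intermediate minus lean was -0.96 ± 0.524. The obese minus intermediate difference of PCK1 thereby turned to -0.32 ± 0.57, so that the fitted order became lean, intermediate, obese. For PPARG the 3 differences were -0.04 ± 0.16, -0.22 ± 0.148 and 0.17 ± 0.161 in the same sequence, which put lean pigs just above obese ones. The SD between the 33 single pigs after removal of group and sex was 0.358 for PPARG and 1.3 for PCK1. The T or NK cell markers were high in the same 3 libraries, and their part in the result was not tested. After removal of group and sex, the log2 of the summed T or NK cell markers had an r of 0.32 with PPARG and 0.26 with PCK1 over all 36 pigs. Over the other 33 pigs these were 0.08 and -0.11.

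For reference, 5 of 12253 genes passed limma at a Benjamini-Hochberg (BH) adjusted p of 0.05 between obese and lean pigs, or 0.0408%, and all 5 were lower in obese pigs. The 1 with a symbol is TAS1R3, a taste receptor subunit, with 141 ± 42 normalized counts in lean pigs against 83.3 ± 18.4 in obese ones (SD, n = 12 each; limma adjusted p = 0.0453). It was named after its values had been seen.

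Females had higher PCK1 and PPARG values than males on average, but neither difference passed the test over all genes. This contrast played no part in the choice of the genes. In the 17 females PCK1 had a lowest, median and highest normalized count of 78.1, 587 and 4729. In the 19 males these were 39.9, 316 and 1536. The sexes overlapped, and 12 of the 17 females lay above the male median. The male minus female difference was -1.36 ± 0.482 (SE) on the log2 scale with a 95% interval of -2.33 to -0.38, and the limma adjusted p was 0.12. PPARG had 1170, 1948 and 3510 normalized counts as the lowest, median and highest female values, and 1047, 1596 and 3519 as the male ones. Here, too, 12 of 17 females were above the male median. The difference was -0.32 ± 0.126 with a 95% interval of -0.58 to -0.07, and the limma adjusted p was 0.16.

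Of all genes 268 passed for sex (2.19%), of which the genes higher in females made up 1.23% and those higher in males 0.955% of the table. With the 3 obese females left out, the PCK1 difference was -0.84 ± 0.455 (limma adjusted p = 0.492) and the PPARG difference was -0.22 ± 0.129 (limma adjusted p = 0.519), and 71 genes passed. Within groups, the PCK1 difference was -1.10 ± 0.556 (SE) in the lean group, -1.21 ± 0.785 in the intermediate one and -1.75 ± 0.932 in the obese one. For PPARG it was -0.25 ± 0.293, -0.19 ± 0.13 and -0.53 ± 0.164. Females were thus on average higher in every group for both genes, but neither gene passed within any group. The lowest limma adjusted p was 0.105, for PPARG in obese pigs. Within obese pigs without replicates 1, 2 and 3, however, the PCK1 difference turned to 0.10 ± 0.808 (SE, limma adjusted p = 0.962), and that of PPARG was -0.23 ± 0.151 (limma adjusted p = 0.489). The marker lists also moved with sex. The 4 measured adipocyte markers summed to a median of 59318 in females and 47219 in males, and the 7 fibroblast or progenitor markers to 277734 and 455393. The T or NK cell markers had the widest sex difference among the lists of at least 4 measured markers, with a median male minus female difference of -1.03 and sums of 365 in females and 214 in males at the median. All 4 had an unadjusted p under 0.05, where 18.3% of all genes had one, and none passed with limma. CD2 passed with voom weights, where 2.42% of all genes did. Without the 3 obese females the median difference was -0.59, still the widest of these lists, with sums of 313 and 214, and none passed. The 8 macrophage markers summed to 7247 and 4703, with a median difference of -0.33. Their part in the sex difference was not tested.

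Whether the obese minus lean difference itself depended on sex was tested as an interaction. In females PCK1 had a median of 1102 normalized counts in lean (range 451 to 1832, n = 5), 321 in intermediate (126 to 3583, n = 6) and 1133 in obese pigs (78.1 to 4729, n = 6). The median of the 3 obese females that did not stand apart was 269 (78.1 to 587). In males the medians were 368 (176 to 1536, n = 7), 257 (66.4 to 373, n = 6) and 354 (39.9 to 523, n = 6). PPARG medians in females were 1941, 1619 and 2487, and in males 1581, 1562 and 1734, in the same order of groups. Obese females and obese males met only at the edge, with PPARG at 1901 to 3229 in the former and 1302 to 1950 in the latter. The female range was 1901 to 2456 without replicates 1, 2 and 3. This overlap was picked after seeing the values. Within obese pigs the limma adjusted p of PPARG for sex was 0.105, where 208 of all genes passed, or 0 without the 3 females. The interaction, as the male minus female difference of obese minus lean, was -0.28 ± 0.313 for PPARG (limma adjusted p = 0.724) and -0.64 ± 1.21 for PCK1 (limma adjusted p = 0.85), with 95% intervals of -0.92 to 0.35 and -3.11 to 1.82. Of all genes, 1 passed this test, or 0.00816%; it is ENSSSCG00000010229, for which no symbol was found. After leaving out the 3 obese females, both estimates turned, to 0.02 for PPARG and 1.21 for PCK1.

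PPARG and PCK1 tended to be high in the same pigs, and mostly so in the obese group. Over all 36 pigs Pearson's r of the log2 values was 0.45 and Spearman's rho was 0.434. After removal of group and sex r was 0.325, with a jackknife SE of 0.175, and rho was 0.399. Without the 2 pigs farthest from the median of PPARG after this removal, lean replicates 4 and 8, r was 0.468. With no term removed and the 2 pigs farthest in PPARG itself left out, r was 0.394, against 0.45 over all pigs. By the r of 0.325 over all 36 pigs, PCK1 ranked 1135 of the 12252 other genes in likeness to PPARG, and PPARG ranked 1446 in likeness to PCK1. Many other genes therefore followed either gene more closely than the pair followed each other.

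Within the groups, with no term removed, r was 0.025 in lean pigs, 0.498 in the intermediate group and 0.863 in the obese group (n = 12 each), and rho was 0.154, 0.364 and 0.79. In lean pigs, replicates 3 and 4 had the highest PPARG of the study with 3510 and 3519, but PCK1 at only 451 and 246. In intermediate pigs r was -0.012 without the 2 pigs farthest from the PPARG median of their own group (n = 10). Lean pigs had 0.42 and obese pigs 0.747 with the same step. Obese pigs without replicates 1, 2 and 3 had an r of 0.558 (n = 9). Over all pigs without these 3, r after removal of group and sex was 0.153. The difference of r between the groups was not tested. The size factor of the library had an r of 0.383 with PCK1 and -0.055 with PPARG over 36 pigs, and with the size factor as a further term the r of the pair was 0.4.

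**Figure D2:**
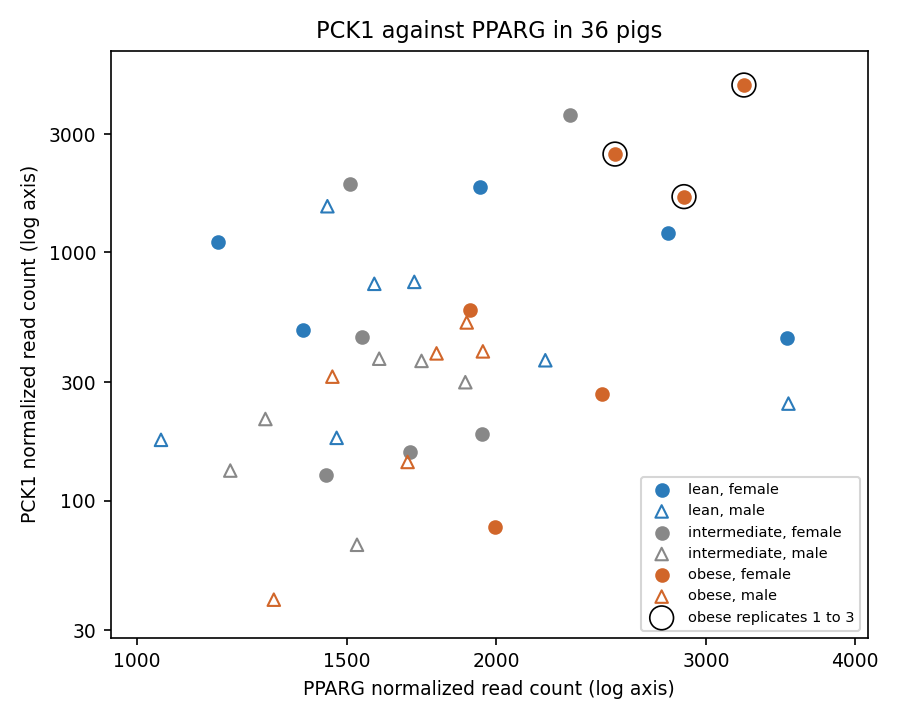
PCK1 against PPARG as normalized read counts (both axes log) in 36 pigs, coloured by group, with filled circles for females and open triangles for males; rings mark obese replicates 1, 2 and 3. The ringed pigs lie at the upper right, and 2 lean pigs with PPARG at 3510 and 3519 lie far below them in PCK1.

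The genes whose pattern over the pigs was most like that of PPARG were ranked by r after removal of group and sex, over 36 pigs. Among genes with a symbol the 8 highest were KYAT3 (0.72), OXCT1 (0.72), MAP4K4 (0.69), LPIN1 (0.68), CPED1 (0.68), DAPK2 (0.67), HSD17B4 (0.66) and PPP2R2A (0.66). OXCT1 encodes the mitochondrial enzyme that activates ketone bodies, HSD17B4 a peroxisomal enzyme of fatty acid oxidation, and LPIN1 the phosphatidate phosphatase lipin 1, which makes diacylglycerol for triglyceride synthesis. Their r was 0.58 to 0.70 without the 3 obese females. The 3 most negative were PELI1 (-0.78), a ubiquitin ligase of immune signalling, WNT10B (-0.67), a Wnt ligand that holds back fat cell differentiation, and ZNRF3 (-0.66), a ubiquitin ligase that removes Wnt receptors. The median r of all genes with PPARG was -0.03, and 90% of them lay between -0.42 and 0.40.

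For PCK1 the 8 highest genes with a symbol were SLC25A20 (0.70), OSBP (0.69), RFX5 (0.67), BID (0.66), HSDL2 (0.65), ILVBL (0.65), DOLK (0.65) and PTGR1 (0.64). SLC25A20 is the carnitine and acylcarnitine carrier that brings fatty acids into mitochondria for oxidation, and OSBP a sterol transfer protein. When the 3 obese females were left out, SLC25A20 had an r of 0.62 and the others 0.51 to 0.62. The lowest were KATNBL1 (-0.57), IL1R1 (-0.56), the interleukin 1 receptor, and FRMD6 (-0.54). IL1R1 and FRMD6 were at -0.33 and -0.37 without the 3 females. The median r of all genes with PCK1 was 0.07, and 90% lay between -0.27 and 0.42. Of the 100 genes most like PPARG and the 100 most like PCK1, 11 were shared, which is 11% of each list.

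The genes around PPARG and PCK1 were described by 7 lists of partners, targets and pathway members, of which 102 of 161 genes besides PPARG and PCK1 could be matched to a row. None of the 102 passed between obese and lean pigs with limma at a BH-adjusted p of 0.05, while 21 had an unadjusted p under 0.05 and none passed with voom weights. For sex 2 of the 102 passed, both higher in females, 30 had an unadjusted p under 0.05 and 4 passed with voom weights. For the interaction none passed, 16 had an unadjusted p under 0.05 and none passed with voom weights. Over all 12253 genes an unadjusted p under 0.05 was found for 14.7% (1800 genes) between obese and lean pigs, for 18.3% (2245) for sex and for 12.9% (1577) for the interaction. The shares that passed over all genes are 0.0408% between obese and lean pigs, 2.19% for sex and 0.00816% for the interaction. With voom weights these were 0.767% (94 genes), 2.42% (296) and 0.00816% (1).

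**Figure D3:**
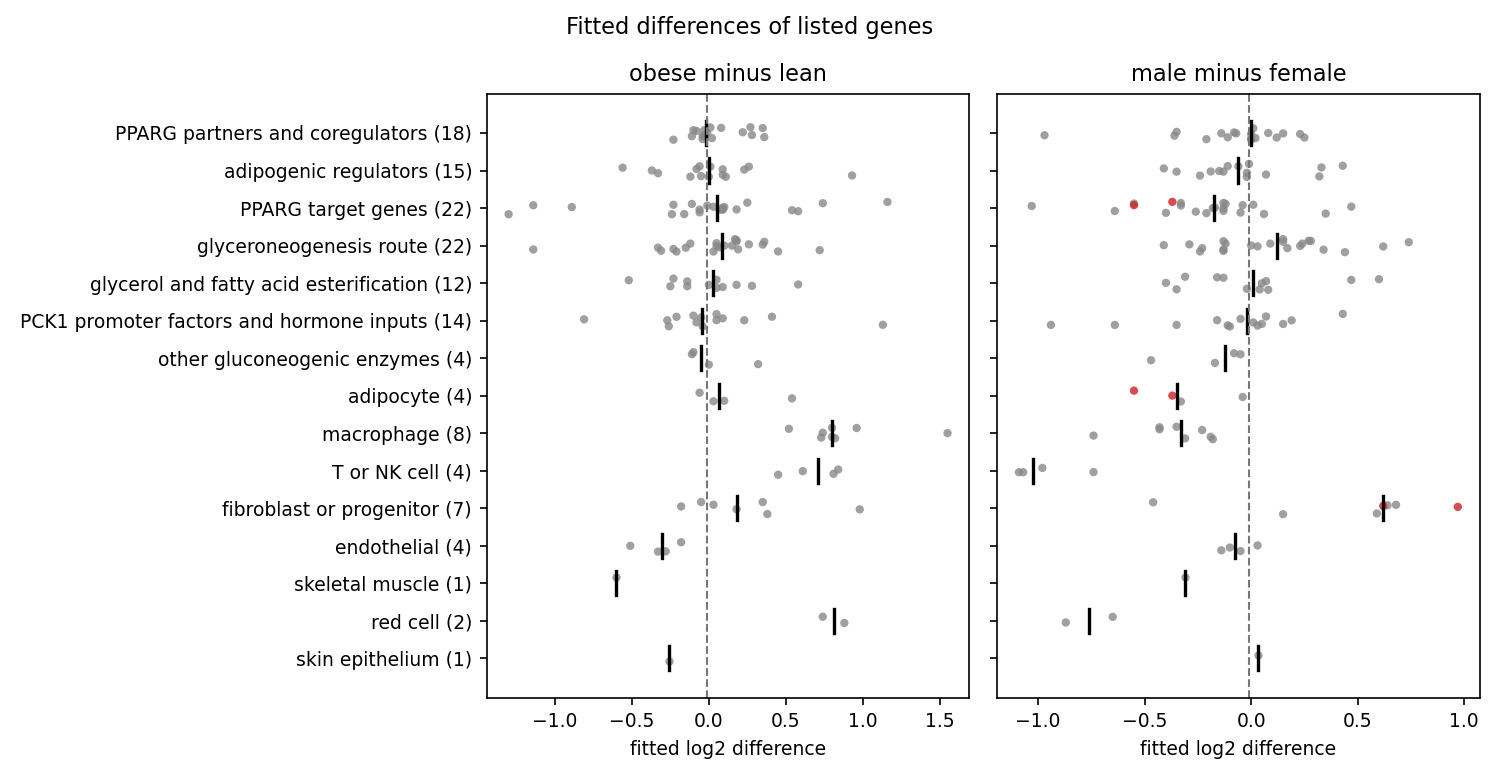
Fitted log2 differences of the listed genes for obese minus lean (left) and male minus female (right), 1 point per gene with the number of genes in brackets. Black bars are list medians, dashed lines the medians of all genes, and red points passed limma at a BH-adjusted p of 0.05; red points are found only on the right, for LIPE and PNPLA2 (each shown in 2 lists) and for COL1A2 and DCN.

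Partners and coregulators of PPARG followed neither gene as a group. Of the 18 measured of 22 listed, 8 had a fitted value above 0 for obese minus lean, with a median of -0.02 against -0.01 over all genes, or 9 and 0.02 without the 3 obese females. Their median r was -0.12 with PPARG and 0.08 with PCK1. PPARD, the related receptor delta, had 1270 ± 736 normalized counts in lean pigs against 1600 ± 795 in obese ones, with a difference of 0.36 ± 0.264 (SE). NRIP1, a corepressor, had a difference of 0.35 ± 0.187, and PPARA, the receptor alpha, 0.28 ± 0.181. The coactivator NCOA1 had an r of 0.55 with PCK1, 0.24 with PPARG. RXRG, a retinoid X receptor, had an r of 0.35 with PCK1 and 0.01 with PPARG, and PPARGC1B, a coactivator of mitochondrial genes, 0.33 with PPARG. Without the 3 obese females NCOA1 was at 0.08 and RXRG at -0.13 with PPARG. RXRA and PPARGC1A were not analysed here, because their symbols matched no row.

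Among the adipogenic regulators CEBPA stood close to both genes. CEBPA, the C/EBP alpha that works with PPARG in fat cell differentiation, had 1897 ± 946 normalized counts in the lean group, 2145 ± 846 in the intermediate one and 2190 ± 789 in the obese one (SD, n = 12 each). Its r was 0.43 with PPARG and 0.54 with PCK1. STAT5A, which carries growth hormone and prolactin signals, had an r of 0.56 with PCK1 and 0.19 with PPARG, and STAT5B 0.40 and 0.31. At the other end, WNT10B was at -0.67 and the early regulator KLF4 at -0.51 with PPARG. The largest fitted obese minus lean differences were 0.93 ± 0.368 for EGR2, -0.56 ± 0.268 for GATA3 and -0.37 ± 0.158 for GATA2 (SE), a factor that restrains adipogenesis like GATA3. WNT10B went from 0.09 to 0.70 ± 0.487 without the 3 obese females, past GATA3 at -0.44 and GATA2 at -0.32. Of the 15 measured of 23 listed, 7 were above 0 for obese minus lean, and the median r was -0.04 with PPARG and 0.06 with PCK1. The glucocorticoid receptor NR3C1 had an r of -0.08 with PPARG and 0.06 with PCK1. With the 3 obese females left out, the list had medians of -0.01 and 0.19, NR3C1 was at -0.01 and 0.22, and STAT5A was at 0.09 with PPARG. CEBPB was not analysed here.

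The listed target genes of PPARG followed PPARG and PCK1 more often than not. Of 22 measured of 35 listed, 19 had a positive r with PPARG and 20 with PCK1, with medians of 0.30 and 0.24 against -0.03 and 0.07 over all genes. Over all genes, 45.2% had a positive r with PPARG and 62.2% with PCK1. CAT, the catalase of peroxisomes, had an r of 0.57 with PPARG and 0.63 with PCK1. ACADM, an enzyme of mitochondrial fatty acid oxidation, had 0.62 with PPARG and 0.27 with PCK1. ANGPTL4, an inhibitor of lipoprotein lipase, had only 0.20 with PPARG but 0.58 with PCK1. Without the 3 obese females ANGPTL4 was at 0.05 with PPARG and ACADM at 0.17 with PCK1, and the medians of the list were 0.27 and 0.23, where those of all genes were -0.07 and 0.04. FABP4, ADIPOQ and LPL were not analysed here, because their symbols matched no row.

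The same targets gave no common direction between obese and lean pigs, with 12 of 22 above 0 and a median of 0.05, or 8 of 22 and -0.09 without the 3 obese females. G0S2, an inhibitor of the lipase ATGL, had 170 ± 175 normalized counts in lean pigs, 102 ± 105 in the intermediate group and 55.6 ± 28.2 in the obese group, a difference of -1.30 ± 0.361 (SE; limma adjusted p = 0.0855). OLR1, a scavenger receptor for oxidized lipoprotein, had 117 ± 114 in lean pigs against 233 ± 174 in obese ones, a difference of 1.16 ± 0.452 (limma adjusted p = 0.209). PDK4, a kinase that shuts off pyruvate dehydrogenase, had 14649 ± 7900 in the lean group, 6617 ± 4710 in the intermediate one and 7026 ± 3165 in the obese one, a difference of -1.14 ± 0.439 (limma adjusted p = 0.201). ANGPTL4 was at 2433 ± 1159 in lean pigs against 1379 ± 835 in obese ones (limma adjusted p = 0.23). The 2 listed genes that passed for sex were both lipases. LIPE, the hormone-sensitive lipase, had 17472 ± 4437 normalized counts in females (n = 17) and 11810 ± 2098 in males (n = 19), which is 1.46-fold higher in females (limma adjusted p = 0.00534). PNPLA2, the lipase ATGL, had 8723 ± 2155 and 6671 ± 1107, 1.29-fold higher in females (limma adjusted p = 0.0483). After leaving out the 3 obese females, neither passed. The male minus female log2 difference of LIPE was then -0.46, from -0.55 (limma adjusted p = 0.0505), and that of PNPLA2 was -0.28, from -0.37 (limma adjusted p = 0.273). The r of LIPE was 0.50 with PCK1 and 0.21 with PPARG, the latter 0.08 without the 3 females, and that of PNPLA2 was 0.53 and 0.47.

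Of the enzymes around PCK1 in glyceroneogenesis, 11 of 22 measured had a positive r with PCK1, against 62.2% of all genes, and none had an r above 0.39. PC, the pyruvate carboxylase that makes the oxaloacetate used by PCK1, had 23574 ± 6865 normalized counts in lean pigs, 21594 ± 3696 in the intermediate group and 21692 ± 6065 in the obese group (SD, n = 12 each), with an r of 0.33 with PCK1 and 0.43 with PPARG. GPD1, which makes glycerol 3-phosphate at the end of the route, had 4655 ± 1674, 4066 ± 1187 and 3948 ± 1105, with an r of 0.24 and 0.39. PCK2, the mitochondrial form of the enzyme, had 126 ± 58.9 in the lean group, 110 ± 34 in the intermediate one and 156 ± 137 in the obese one, with an r of 0.16 with PCK1. Without the 3 obese females the r with PCK1 was 0.15 for PC, 0.13 for GPD1 and -0.10 for PCK2, and the r of PCK2 with PPARG turned from 0.10 to -0.12. GPD1L, a relative of GPD1, had the highest r of the list with PCK1, 0.39, and PDK1, like PDK4 a pyruvate dehydrogenase kinase, the highest with PPARG, 0.47. With PPARG 18 of the 22 (30 listed) had a positive r, and the medians were 0.00 with PCK1 and 0.12 with PPARG. Without the 3 females these were -0.08 and 0.14, and the r of GPD1L with PCK1 was 0.26. For obese minus lean 15 were above 0, with a median of 0.09. Apart from PDK4, the largest differences were 0.72 ± 0.368 (SE) for ME1, the malic enzyme that makes NADPH, and 0.45 ± 0.324 for SLC25A1, the citrate carrier. ME1 varied widely between lean pigs, with 13081 ± 15158 normalized counts (SD, n = 12).

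In the esterification of fatty acids to glycerol 3-phosphate, LPIN1 was the gene nearest to the pair. Its normalized counts were 3616 ± 1149 in lean pigs, 2782 ± 1226 in the intermediate group and 3244 ± 1308 in the obese group, with an r of 0.68 with PPARG and 0.56 with PCK1. When the 3 obese females were left out, these were 0.63 and 0.44. GPAM, the acyltransferase of the first step, had an r of 0.36 with PPARG and 0.35 with PCK1, and DGAT1, an acyltransferase of the last step, 0.46 and 0.32. The r of GPAM with PCK1 was 0.23 without the 3 females. Other members lay on the opposite side, such as AGPAT4 with -0.51 and the fatty acid ligase ACSL4 with -0.38 with PPARG. The largest obese minus lean differences were 0.58 ± 0.197 (SE) for ACSL4, -0.52 ± 0.185 for ACSL3 and 0.28 ± 0.221 for AGPAT4. LPIN1 went from -0.25 to -0.46 ± 0.189 without the 3 females, past AGPAT4 at 0.30. Of 12 measured of 22 listed, 7 were above 0 for obese minus lean, with a median of 0.03 (5 and -0.04 without the 3 females), and the median r was 0.09 with PPARG and 0.05 with PCK1. DGAT2 was not analysed here.

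Of the factors and hormone inputs known for the PCK1 promoter, 12 of 14 measured (33 listed) had a positive r with PCK1, with a median of 0.16, and 5 of 14 with PPARG, with a median of -0.05 (-0.08 without the 3 obese females). ADRB1, the beta 1 adrenergic receptor, which raises cyclic AMP, had the highest r with PCK1, 0.61, which was 0.59 without the 3 obese females. Its normalized counts were 114 ± 63.1 in the lean group, 85.3 ± 86.9 in the intermediate one and 80.5 ± 57.4 in the obese one (difference -0.81 ± 0.387, SE). ATF3, a stress-induced transcription factor, had 147 ± 132 in lean pigs, 302 ± 158 in the intermediate group and 293 ± 201 in the obese group, a difference of 1.13 ± 0.377 (limma adjusted p = 0.134), with an r of 0.10 with PCK1, or 0.15 without the 3 females. FOXO1 and FOXO3, which insulin keeps out of the nucleus, had an r of -0.24 and -0.39 with PCK1, which was -0.06 and -0.08 without the 3 obese females. FOXO3 had an obese minus lean difference of 0.41 ± 0.264, or 0.78 ± 0.216 without these females (SE; limma adjusted p = 0.106). The list had 6 of 14 members above 0 for obese minus lean and a median of -0.05.

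The list of gluconeogenesis and its control held 4 other measured genes (8 listed), FBP2, G6PC3, SLC37A4 and PFKFB3. FBP2, the muscle form of fructose bisphosphatase, had an r of 0.49 with PCK1 and 0.44 with PPARG, with 535 ± 226 normalized counts in the lean group, 478 ± 179 in the intermediate one and 517 ± 233 in the obese one. G6PC3, a glucose 6-phosphatase, had an r of 0.33 with PCK1 (0.19 without the 3 obese females), SLC37A4, the glucose 6-phosphate carrier, 0.13, and PFKFB3, a kinase that favours glycolysis, -0.22. The obese minus lean differences were between -0.11 for FBP2 (-0.29 without the 3 females) and 0.32 for SLC37A4.

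**Figure D4:**
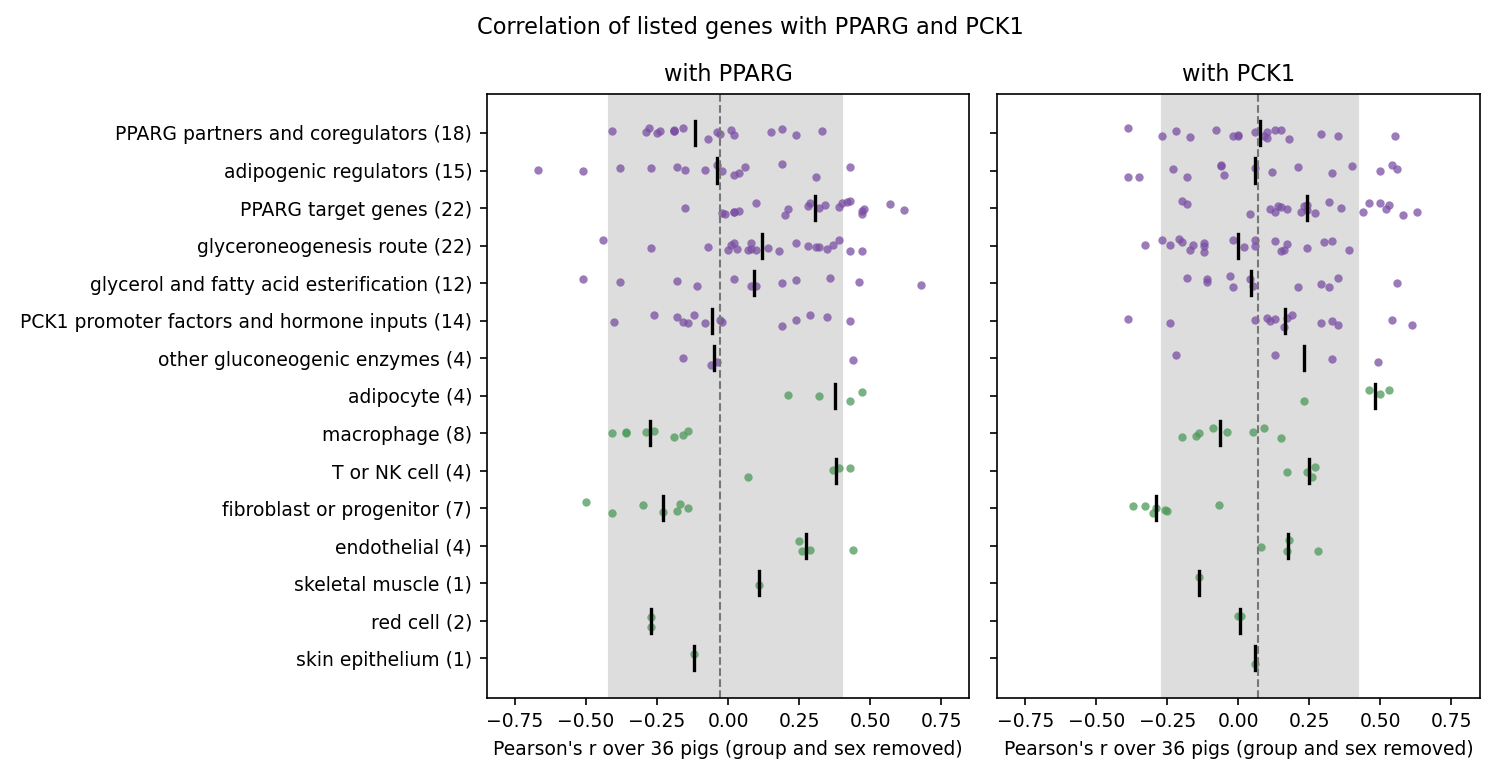
Pearson's r of the listed genes with PPARG (left) and PCK1 (right) over 36 pigs after removal of group and sex, with pathway lists in purple and cell type markers in green. Black bars are list medians, dashed lines the medians of all genes and grey bands the range of the middle 90% of genes; the target genes of PPARG have medians of 0.30 and 0.24, and the adipocyte markers 0.37 and 0.48.

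The cell type markers gave the surroundings of both genes. The 4 measured adipocyte markers of 8 listed all had a positive r with both genes, with medians of 0.37 for PPARG and 0.48 for PCK1. They were PLIN1 (0.43 and 0.46), CIDEC (0.32 and 0.23), LIPE and PNPLA2, and all 4 also stand in the list of PPARG targets. CIDEC, which fuses lipid droplets, had 8004 ± 2809 normalized counts in lean pigs against 11348 ± 2456 in obese ones, a difference of 0.54 ± 0.162 (SE; limma adjusted p = 0.106). The summed adipocyte markers ranged from 26840 to 69620 in lean, 34317 to 73036 in intermediate and 37489 to 81473 in obese pigs.

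The 7 measured fibroblast or progenitor markers of 10 listed all had a negative r with both genes, with medians of -0.23 for PPARG and -0.29 for PCK1. Without the 3 obese females the medians were -0.11 and -0.15, COL1A2 was at 0.02 with PPARG and PI16 at 0.12 with PCK1, and the r of the summed markers moved from -0.19 to -0.01 with PPARG and from -0.37 to -0.23 with PCK1. Among them COL1A2, a collagen chain, was at 78058 ± 33948 normalized counts in males and 39863 ± 19473 in females (limma adjusted p = 0.00676), and DCN, the matrix proteoglycan decorin, at 47419 ± 9947 and 31944 ± 11995 (limma adjusted p = 0.0222). With the 3 obese females left out, the male minus female log2 difference was 0.84, from 0.97, for COL1A2 (limma adjusted p = 0.0442) and 0.52, from 0.62, for DCN (limma adjusted p = 0.121). The 8 measured macrophage markers of 14 listed had a median r of -0.28 with PPARG and -0.06 with PCK1, or -0.29 and -0.10 without the 3 females. All 8 were above 0 for obese minus lean, with a median of 0.80, but none passed with limma, 7 had an unadjusted p under 0.05, where 14.7% of all genes had one, and none passed with voom weights. The 4 measured T or NK cell markers all had a positive r with both genes, with medians of 0.38 for PPARG and 0.25 for PCK1, which became 0.17 and -0.10 without the 3 females. Their median obese minus lean difference moved from 0.71 to 0.10 with the same step, and none passed with limma or voom weights in all 36 pigs, where 1 had an unadjusted p under 0.05. The 4 measured endothelial markers of 8 listed had a median r of 0.28 with PPARG and 0.17 with PCK1. All 4 were below 0 for obese minus lean, with a median of -0.31. None passed with limma, and 2 had an unadjusted p under 0.05. TIE1 passed with voom weights, where 0.767% of all genes did. The 2 measured red cell markers of 5 listed, HBB and ALAS2, were at -0.27 each with PPARG and at 0.00 and 0.01 with PCK1, which was -0.18 each and 0.21 and 0.22 without the 3 females. The part of cell type shares in the spread of PPARG and PCK1 was not tested.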

How the data were processed

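According to the methods, reads were filtered with FastQC, aligned by STAR to the pig assembly Sscrofa10.2 and assigned to genes by HTSeq. The authors then dropped low genes, estimated DESeq size factors and ran voom of limma, and deposited log2 values. Each value is the log2 of reads plus 0.5 over the size factor plus 1, with a fixed factor. Whole reads were recovered from these steps (100% of values below 1000 reads within 0.1), and normalized counts are reads divided by the size factor. The gender correction that the methods name is not in the values. Pairs of pigs had correlations of 0.898 to 0.978.

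Symbols were found for 8320 of 12253 identifiers. No sequence was used here. Differences were fitted with limma 3.58.1 in R 4.3.3 (empirical Bayes with intensity trend, terms for group and sex, BH over all genes at 0.05), and the interaction with the product of both terms. The script was tested on simulated data. Correlations used residuals after group and sex (Python 3.11.15, numpy 2.4.6, pandas 2.3.3). The genes and lists were chosen with earlier results of these data known. Named genes were the pair, listed genes that passed, per list the 3 largest obese minus lean differences and the 2 highest r with either gene, the 8 highest and 3 lowest r of all genes with a symbol, adipocyte markers and a few genes fixed by name. Most alternatives changed 1 choice. These were a term, the trend, a filter on the lowest 25% of genes, the scaling, voom weights, the sex or group, or pigs left out. The fit within obese pigs without the 3 females changed both the group and the pigs. Voom weights came with values scaled by the summed reads of each pig. Neither lanes nor families of single pigs were known, and the p-values take no account of full sibs.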

Additional observations from a re-analysis of the deposited data

How the results depend on the processing

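Over the alternatives the obese minus lean difference ran from -0.04 to 0.25 for PPARG, against 0.10 as reported. For PCK1 it ran from -1.28 to -0.22, against -0.56 as reported. The PPARG difference turned below 0 in males only and without the 3 obese females, where that of PCK1 was -1.28. Leaving out 1 pig gave 0.01 to 0.19 for PPARG and -0.81 (without obese replicate 2) to -0.27 (without obese replicate 9) for PCK1. Females only gave 0.25 for PPARG and -0.22 for PCK1, and males only gave -0.04 and -0.86. The number of genes that passed between obese and lean pigs moved widely. It was 5 as reported, 12 without the intensity trend, and 9 after subtraction of each pig's median and also on whole size factors. Removal of the lowest 25% of genes gave 1, voom weights gave 94 and a fit without the sex term gave 3. With lean and obese pigs only the number was 17, in females 21 and in males 2. For sex, neither PPARG nor PCK1 passed under any alternative (adjusted p of 0.0738 to 0.966 for PPARG and 0.0517 to 0.962 for PCK1), and leaving out 1 pig gave -0.39 to -0.27 and -1.56 to -1.18. Of all genes 268 passed, 71 without the 3 obese females, and 0 within lean, 1 within intermediate and 208 within obese pigs, with 12 pigs in each fit, and 0 within obese pigs without the 3 females, where 9 pigs were fitted and the PCK1 difference turned to 0.10. The interaction ran from -0.48 to -0.08 for PPARG and from -1.33 to -0.11 for PCK1 without 1 pig, and it turned to 0.02 and 1.21 without the 3 obese females. It was passed by 1 gene as reported, 2 without the trend, and 0 after median subtraction, on whole size factors or without the 3 obese females. The r of the pair after removal of group and sex was 0.252 to 0.417 without 1 pig, -0.098 within lean and 0.854 within obese pigs. The causes were not tested. Leaving out the 3 obese females, the fits within groups for sex (also without the 3 females), the size factor term and whole size factors for sex, the interaction and r were chosen after seeing the data. No paired analysis was possible because the replicate numbers only name the pigs in order. Counting error at the lowest library was 2.97% for PPARG and 15.8% for PCK1.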
